A study of Homo sapiens with 6 samples.

Results

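Prostaglandins are lipid signals made from arachidonic acid, and 10 genes of their synthesis, breakdown and reception were followed in a human esophageal squamous cancer line and its radioresistant derivative. The genes were PTGS1, PTGS2, PTGES, PTGES2, PTGES3, PTGDS, PTGR1, HPGD, PTGER2 and PTGER4, and they were chosen by name, through the current symbol or an older alias, from 18665 genes named on the array. All 10 were matched, by 14 probes, and 4 of the genes had 2 probes each.

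Illumina Human-6 V3 arrays were used, on which beads carry a short probe for each transcript and the brightness of the bound RNA gives an intensity. KY170R cells, the radioresistant clone obtained by repeated fractionated irradiation, were harvested 0, 8 and 24 h after linear accelerator irradiation, and KY170 cells, the radiosensitive parental line, at the same times. There was 1 array for each line at each time, so that no group had replicates and every comparison between the lines or between times used the other factor as its repeats. Both lines were grown in RPMI medium with fetal bovine serum. The sources used here state no dose for these arrays, give no unirradiated cells kept for 8 or 24 h, and do not settle whether irradiation came before the 0 h harvest. In the RT-PCR that the study ran on these lines, the first samples were taken before irradiation, which is not stated for the arrays. Therefore irradiation and time in culture cannot be told apart. The labels do not say that the arrays came from separate cultures, and p-values then measure only the spread between these 6 arrays, which may be technical.

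Cyclooxygenases, encoded by PTGS1 and PTGS2, turn arachidonic acid into prostaglandin H2. Prostaglandin E synthases turn that intermediate into prostaglandin E2, which acts on receptors such as EP2 and EP4 that raise cyclic AMP in the cell. Its signal is ended by 15-hydroxyprostaglandin dehydrogenase, encoded by HPGD, whose 15-keto products are reduced further by prostaglandin reductases such as PTGR1. PTGS2 is the inducible cyclooxygenase, and in squamous epithelium it is known for its induction by stress, growth factors and inflammation.

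The deposited intensities had been normalized between arrays, so that the arrays had nearly equal medians (6.46 to 6.47) and neither brightness nor the share of probes above background describes a single array. Arrays of both lines correlated at r = 0.939, 0.954 and 0.946 at 0, 8 and 24 h (Pearson on log2 values, across probes, which are not independent replicates), and within a line the 0 h array correlated at 0.913 to 0.927 with the later ones. A probe was taken as above background where it exceeded 13.7, a limit set from the values below 0 that background subtraction had left. Of 7 matched markers of squamous epithelium, 6 were above this limit on all arrays. Of these 7, 2 were called higher in KY170R, KRT14 and DSG3 (log2 differences 3.43 and 1.13, adjusted p = 0.00258 and 0.0456), and 2 lower, KRT13 and KRT5 (-3.18 and -1.74, adjusted p = 5.0e-05 and 0.0341). Of 7 fibroblast markers, 4 were above it on no array, as were 3 of 5 immune markers and 1 of 4 endothelial markers. The endothelial marker CDH5 was called lower in KY170R (log2 difference -3.43, adjusted p = 0.0160), and no fibroblast or immune marker was called between the lines. CDH5 read 21.6, -1.4 and 3.6 in KY170R and 127.4, 26.4 and 29.5 in KY170 at 0, 8 and 24 h. The summed intensity of the matched squamous markers was 19589 to 25713 in KY170R and 28598 to 32045 in KY170. This sum holds EPCAM, at 6678 to 13892 in KY170R and 7427 to 14720 in KY170. It also holds KRT13, at 574.0 to 1377 in KY170R and 7391 to 13654 in KY170. The fibroblast markers summed to 70.3 to 165 in KY170R and 87.9 to 137 in KY170. The immune markers summed to 53.5 to 69.8 in KY170R and 46.9 to 94.0 in KY170, and the endothelial ones to 29.8 to 102 in KY170R and 56.9 to 228 in KY170. The part of these cell markers in the results below was not tested.

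Of the 14 probes, 12 probes of 8 genes were above the limit on 2 or more arrays, and these 12 were among the 24401 probes tested. The single probes of PTGDS and PTGER2 were above the limit on none of the 6 arrays. Probes of the remaining 8 genes differed in what they showed: PTGR1 and PTGES were higher in KY170R, PTGS2 rose and PTGES and PTGES2 fell between 0 and 8 h, and PTGS1, PTGES3, HPGD and PTGER4 passed no test. A bulk array cannot tell fewer cells expressing a gene from less RNA per cell.

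The 3 genes with the largest called changes are shown here by the 250 bases that precede their start site, because a change between the lines (PTGR1), a rise (PTGS2) and a fall (PTGES) with time are set beside the letters that lie before each gene. The sequences are from RefSeq on GRCh38.p14, where all 10 genes were matched (14 start sites), and are written 5′ to 3′ on the strand of the gene. Capitals mark matches to any of 7 short motifs searched on both strands: the TATA box TATAAA, the core TGACG of the cyclic AMP response element, the NF-kB motif (GGG and TTCC parted by 3 free bases), the AP-1 motif TGANTCA, the antioxidant response core TGACNNNGC, the GC box GGGCGG and the C/EBP motif TTNNGNAA.
PTGS2, chr1:186680424-186680673, minus strand: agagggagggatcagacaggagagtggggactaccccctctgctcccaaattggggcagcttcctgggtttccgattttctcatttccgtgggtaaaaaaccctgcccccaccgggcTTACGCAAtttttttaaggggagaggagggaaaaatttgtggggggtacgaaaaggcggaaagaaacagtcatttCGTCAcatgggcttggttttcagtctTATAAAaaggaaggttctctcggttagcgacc
PTGES, chr9:129753043-129753292, minus strand: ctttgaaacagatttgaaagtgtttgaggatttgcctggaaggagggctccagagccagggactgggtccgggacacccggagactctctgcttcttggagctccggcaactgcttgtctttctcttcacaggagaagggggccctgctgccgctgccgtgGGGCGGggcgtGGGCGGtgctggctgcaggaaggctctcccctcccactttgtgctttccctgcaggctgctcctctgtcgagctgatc
PTGR1, chr9:111599432-111599681, minus strand: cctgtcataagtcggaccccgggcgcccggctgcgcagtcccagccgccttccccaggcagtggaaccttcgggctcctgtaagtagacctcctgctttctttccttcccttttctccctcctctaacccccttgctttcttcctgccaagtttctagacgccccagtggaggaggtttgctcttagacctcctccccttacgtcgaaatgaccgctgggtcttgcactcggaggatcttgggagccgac
The PTGS2 stretch held a TATA box whose first base lay at position -32 from the start site (the base before the start is -1), a cyclic AMP core, on the other strand, at -58, and a C/EBP match at -133. TATAAA was present in 10.7% of 35116 stretches of the same length, the cyclic AMP core in 21.2% and the C/EBP motif in 33.2%. The PTGES stretch held 2 GC boxes, at -89 and -78, a motif present in 42.6% of stretches. The PTGR1 stretch held none of the 7 motifs. The NF-kB, AP-1 and antioxidant motifs, with matches in 5.67, 6.57 and 10.9% of all stretches, were in none of the 3 windows, which says only that these letters are not in these 250 bases.

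**Figure D1:**
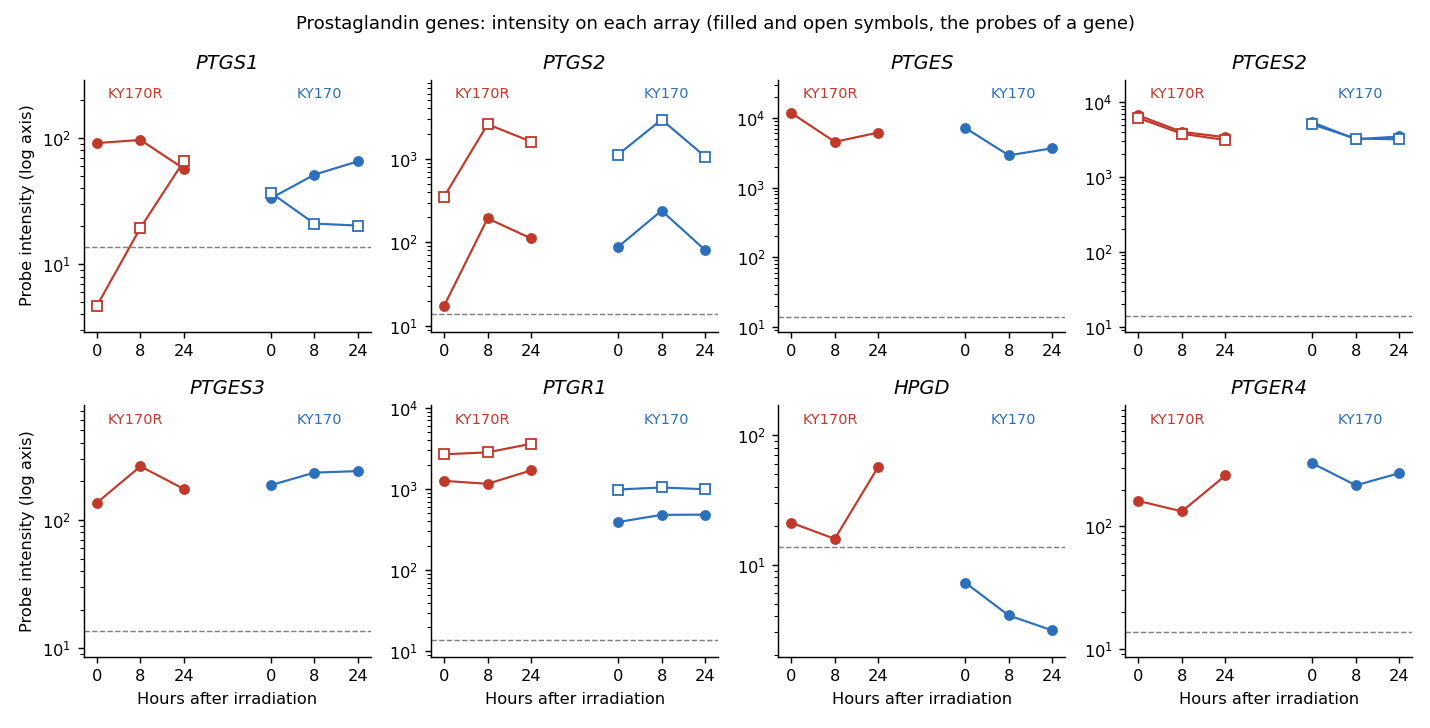
Probe intensity (log axis) of the 8 genes with a probe above background, on each array, against hours after irradiation, with KY170R in red on the left of each panel and KY170 in blue on the right. Filled and open symbols are the probes of one gene and the dashed line is the background limit of 13.7. PTGR1 is higher on all KY170R arrays, PTGS2 peaks at 8 h in both lines, and PTGES is lowest at 8 h in both.

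PTGS2, the inducible cyclooxygenase, was higher at 8 h than at 0 h in both lines. Its brighter probe (ILMN_2054297) read 352.4, 2588 and 1608 in KY170R and 1121, 2943 and 1065 in KY170 at 0, 8 and 24 h. The change from 0 to 8 h was 7.34-fold in KY170R and 2.62-fold in KY170. KY170R therefore started lower, was close to KY170 at 8 h and was above it at 24 h, and KY170 was back near its 0 h value at 24 h.

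The other PTGS2 probe (ILMN_1677511) gave the same order of arrays at lower intensity. It read 17.4, 193.7 and 111.6 in KY170R and 88.3, 239.9 and 80.9 in KY170 at 0, 8 and 24 h, and the 0 h value in KY170R was only just above background. The ratio of the brighter to the dimmer probe varied between 12.3 and 20.2 over the arrays. On both probes the 8 h values of each line were above both 0 h values.

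Over both lines, the change of PTGS2 from 0 to 8 h was 2.13 ± 0.48 on the log2 scale for the brighter probe and 2.46 ± 0.58 for the other (SE, limma on 6 arrays), with adjusted p = 0.0167 and 0.0117. Of the 12 tested probes of these genes, 5 were called between 8 and 0 h, against 29.1% of all probes tested (15.2% called higher and 13.9% lower), and the 2 PTGS2 probes were the 2 that rose. Both PTGS2 calls were lost with a floor at the background limit (limma, adjusted p = 0.187 and 0.213 for the brighter and the dimmer probe). They were also lost with no filter on dim probes (0.368 and 0.404). The call did not rest equally on all arrays. Without the KY170R 8 h array the adjusted p was 0.120 and 0.110 for the brighter and the dimmer probe, without the KY170R 0 h array it was 0.0577 for the dimmer probe, and without the KY170 8 h array it was 0.0579 for the brighter one.

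At 24 h PTGS2 did not pass the test against 0 h, with log2 changes of 1.06 ± 0.48 and 1.28 ± 0.58 (SE) and adjusted p = 0.139 and 0.120 for the brighter and the dimmer probe. In KY170R the 24 h values were 4.56-fold and 6.40-fold their 0 h values, and in KY170 0.950-fold and 0.917-fold. With each of the 6 arrays left out in turn, the log2 change ranged from 0.121 to 1.995 for the brighter probe and from 0.068 to 2.48 for the dimmer one. It was lowest without the KY170R 0 h array and highest without the KY170 0 h array. Without the KY170R 24 h array it was 0.297 and 0.383. Leaving out a 0 h or 24 h array leaves that time with 1 array, that of the other line. The 8 h and 24 h comparisons share the same 0 h arrays.

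Between 8 and 24 h, both PTGS2 probes read lower at 24 h in both lines, with log2 differences of -1.08 ± 0.48 and -1.18 ± 0.58 (SE) that did not pass (adjusted p = 0.245 and 0.263). Without the KY170R 24 h array, where the 24 h level rests on KY170 alone, the differences were -1.84 and -2.08. Without the KY170 24 h array, where that level rests on KY170R alone, the differences were -0.32 and -0.29. They passed without the KY170R 0 h array (adjusted p = 0.0211 and 0.0418) and without the KY170 0 h array (0.0170 and 0.0423), which leave the differences themselves as they were. Of the 12 probes of these genes, none was called between 24 and 8 h by limma and 1 had an unadjusted p under 0.05, against 6.52% of all probes called and 23.1% at such a p.

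On both probes PTGS2 read lower in KY170R at 0 and 8 h and higher at 24 h, with 1 array per line at each time. KY170R was 3.18-fold lower than KY170 at 0 h, 1.14-fold lower at 8 h and 1.51-fold higher at 24 h on the brighter probe, and 5.06-fold lower, 1.24-fold lower and 1.38-fold higher on the dimmer one. The mean differences, -0.42 ± 0.39 and -0.73 ± 0.47 on the log2 scale (SE), did not pass (adjusted p = 0.739 and 0.587). Without the 24 h arrays both were called lower in KY170R, at -0.93 and -1.32 (adjusted p = 4.0e-04 and 0.0194), and without the 0 h arrays both were slightly above 0, at 0.20 and 0.077 (adjusted p = 0.786 and 0.953). Each of these fits leaves fewer than 2 residual degrees of freedom, so that its p-values rest largely on the prior variance. The brighter probe itself was 3.18-fold lower at 0 h but only 1.14-fold lower at 8 h.

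Whether the lines changed unequally after 0 h was tested as an interaction, with the 8 and 24 h arrays of a line taken as repeats. For PTGS2 it was 1.87 ± 0.93 and 2.42 ± 1.10 on the log2 scale (SE), that is, a larger rise in KY170R, with an adjusted p of 0.999 for each probe. Limma called 0% of all probes in this test, with 601 probes (2.46%) at an unadjusted p under 0.05, 1 of them among the 12 of these genes. With a floor at the background limit 668 probes were called, and with no filter 2052, none of them of these genes. The difference between the lines in the PTGS2 time course thus did not pass its test. That test cannot decide the question, since the change between 8 and 24 h counts as spread in it. Its smallest adjusted p over all probes was 0.999.

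**Figure D2:**
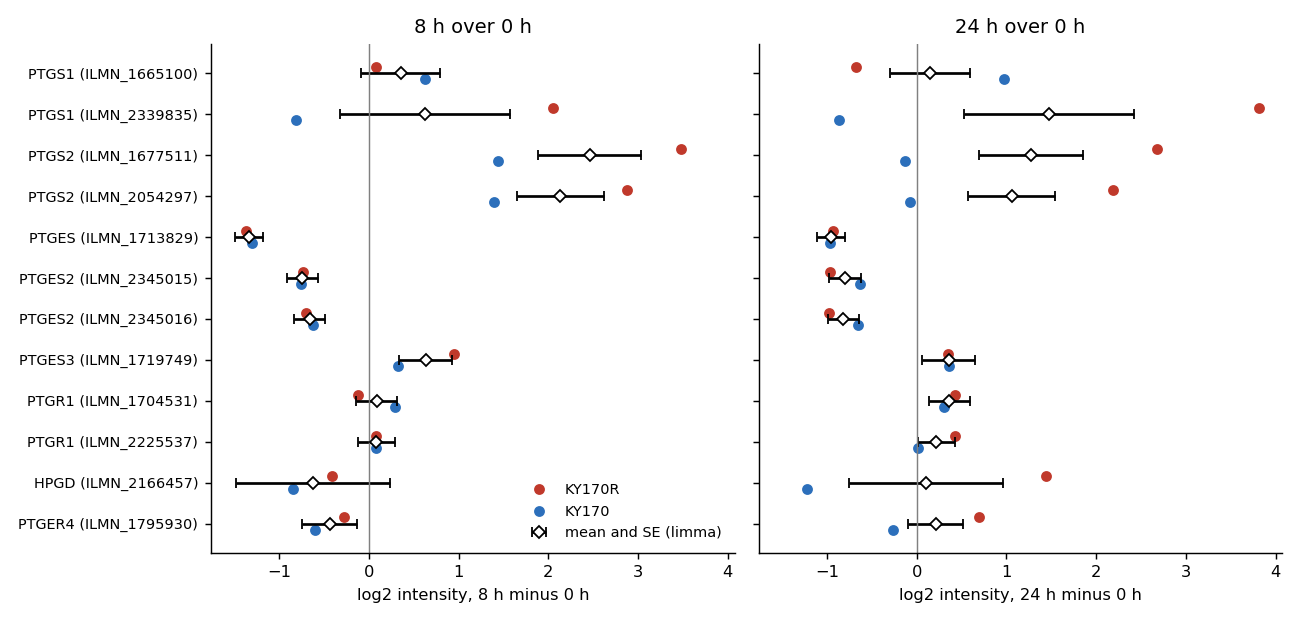
Change in log2 intensity from 0 h to 8 h (left) and from 0 h to 24 h (right) for the 12 tested probes, with KY170R in red, KY170 in blue, and the mean over both lines with its SE from limma as open diamonds. Both PTGS2 probes lie near 2.1 to 2.5 at 8 h, with KY170R to the right of KY170, and the lines overlap closely for PTGES and PTGES2, which lie below 0 in both panels.

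PTGS1, the constitutive cyclooxygenase, was dim and its probes disagreed. One probe (ILMN_1665100) read 91.3, 96.7 and 57.2 in KY170R and 33.4, 51.3 and 65.4 in KY170 at 0, 8 and 24 h. KY170R was higher at 0 and 8 h and lower at 24 h, and the mean difference of 0.72 ± 0.36 on the log2 scale (SE) did not pass (adjusted p = 0.435).

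The other PTGS1 probe (ILMN_2339835), annotated to another RefSeq transcript, read 4.7, 19.5 and 65.9 in KY170R and 36.9, 21.0 and 20.3 in KY170. Its values climbed with time in KY170R, where the 0 h array was below the limit, and were lower after 0 h in KY170. The mean line difference of -0.46 ± 0.77 (SE) did not pass (adjusted p = 0.872), and leaving out the 0 h arrays turned it to 0.80 (adjusted p = 0.599). The changes with time were called only in fits that left out the KY170 0 h or 24 h array. There the log2 changes were up to 2.50 at 8 h, 3.36 at 24 h and 2.47 between 24 and 8 h. In these fits 1 of the times compared rests on the KY170R array alone.

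PTGES, the membrane-bound prostaglandin E synthase that works with PTGS2, was bright in both lines, higher in KY170R at every time point, and lowest at 8 h. Its probe (ILMN_1713829) read 11736, 4525 and 6142 in KY170R and 7165, 2897 and 3655 in KY170 at 0, 8 and 24 h. KY170R was 1.64-fold, 1.56-fold and 1.68-fold above KY170 at 0, 8 and 24 h. The values of the lines overlapped when the times were pooled, since KY170 at 0 h was above KY170R at 8 and 24 h.

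The mean line difference of PTGES was 0.70 ± 0.13 on the log2 scale (SE, limma), 1.63-fold, and passed the test (adjusted p = 0.0205). The call was lost without the 0 h arrays (adjusted p = 0.0720) or without the 8 h arrays (0.135), while the log2 difference stayed between 0.68 and 0.73 whichever time point was left out.

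PTGES fell after 0 h in both lines. At 8 h the level was 0.386-fold that of 0 h in KY170R and 0.404-fold in KY170, and at 24 h it was 0.523-fold in KY170R and 0.510-fold in KY170. The fitted changes were -1.34 ± 0.16 at 8 h and -0.95 ± 0.16 at 24 h on the log2 scale (SE), with adjusted p = 2.8e-04 and 0.00104. Each was called in all 6 fits that left out 1 array, with adjusted p of at most 0.00921 and 0.0131. The fall at 8 h thus went with a rise of PTGS2, the enzyme one step before it, on the same arrays.

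PTGES2, a second membrane-associated prostaglandin E synthase, also fell with time and differed little between the lines. One probe (ILMN_2345015) read 6629.7, 3996 and 3391 in KY170R and 5361, 3182 and 3470.0 in KY170 at 0, 8 and 24 h. The other (ILMN_2345016) read 6115, 3774 and 3110.2 in KY170R and 5022, 3256 and 3181 in KY170. The probes gave nearly the same intensity, with a ratio between 0.917 and 1.02, and on both of them each 0 h value was above every later value.

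At 8 h the PTGES2 changes were -0.74 ± 0.17 and -0.66 ± 0.17 on the log2 scale (SE), with adjusted p = 0.00881 and 0.0148, and at 24 h -0.80 ± 0.17 and -0.82 ± 0.17, with adjusted p = 0.00482 and 0.00400. At 8 h both calls were lost without the KY170R 0 h array (adjusted p = 0.0746 and 0.114), the KY170R 8 h array (0.0850 and 0.157) or the KY170 8 h array (0.176 and 0.204), and at 24 h that of ILMN_2345015 was lost without the KY170R 0 h array (0.0505). Both 8 h calls were also lost with a floor at the background limit (limma, adjusted p = 0.0764 and 0.0697) and with no filter (0.179 and 0.164). At 24 h that floor lost the call of ILMN_2345015 (0.0595), and no filter lost both (0.141 and 0.115). The line differences, 0.20 ± 0.14 and 0.15 ± 0.14 (SE), did not pass (adjusted p = 0.619 and 0.718).

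Between 24 and 0 h, 3 of the 12 tested probes were called, all of them lower at 24 h and all of PTGES or PTGES2, against 36.5% of all probes called and 17.4% called lower. The median log2 change of the 12 probes was 0.08 at 8 h and 0.22 at 24 h, beside 0.03 and -0.12 over all probes tested.

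PTGES3, a cytosolic prostaglandin E synthase also known as the HSP90 co-chaperone p23, passed no test. It read 136.0, 261.3 and 173.9 in KY170R and 186.4, 233.3 and 239.7 in KY170 at 0, 8 and 24 h. Both lines were above their 0 h value at 8 and 24 h, with fitted log2 changes of 0.63 ± 0.30 and 0.36 ± 0.30 (SE) and adjusted p = 0.143 and 0.385. The line difference was -0.25 ± 0.24 (SE, adjusted p = 0.737).

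PTGDS, the lipocalin-type prostaglandin D synthase, had a probe (ILMN_1664464) that was below 0 after background subtraction on all 6 arrays, with values between -10.3 and -0.88 in KY170R and between -7.64 and -0.19 in KY170. No level can be given for it.

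PTGR1, which reduces 15-keto prostaglandins and also oxidises leukotriene B4, had the smallest adjusted p of these genes between the lines. Its brighter probe (ILMN_2225537) read 2678, 2828 and 3607 in KY170R and 985.6, 1045 and 993.3 in KY170 at 0, 8 and 24 h. Its other probe (ILMN_1704531) read 1260.2, 1159 and 1695 in KY170R and 392.1, 480.6 and 483.6 in KY170. On both probes every KY170R array was above every KY170 array, a pattern shown by 3.2% of all probes tested. Among the 11 tested probes of these genes that were above the limit in both lines, these 2 showed it. The remaining one, that of HPGD, also did, but it was above the limit in KY170R alone and had to differ.

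KY170R was 2.72-fold, 2.71-fold and 3.63-fold above KY170 on the brighter PTGR1 probe at 0, 8 and 24 h, and 3.21-fold, 2.41-fold and 3.50-fold on the other. The mean differences were 1.58 ± 0.17 and 1.59 ± 0.19 on the log2 scale (SE, limma), 2.99-fold and 3.01-fold, with adjusted p = 0.00101 and 0.00248. Both were called with each time point left out in turn, with log2 differences between 1.44 and 1.65 for the brighter probe and between 1.48 and 1.75 for the other, and the highest adjusted p was 0.00318 and 0.00702.

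PTGR1 passed no test over time. Its log2 changes at 8 h were 0.08 ± 0.20 and 0.09 ± 0.23, and at 24 h 0.22 ± 0.20 and 0.37 ± 0.23 (SE), with adjusted p between 0.254 and 0.843. The values were highest at 24 h in KY170R on both probes, 1.35-fold and 1.34-fold those of 0 h, while in KY170 they were 1.01-fold and 1.23-fold. The interaction was 0.21 ± 0.52 and -0.14 ± 0.60 (SE), not called.

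HPGD, the enzyme that begins prostaglandin breakdown, was near background. Its probe (ILMN_2166457) read 21.1, 15.8 and 57.1 in KY170R and 7.3, 4.0 and 3.1 in KY170 at 0, 8 and 24 h. All KY170R arrays were above the limit of 13.7 and no KY170 array was, which bounds the difference at at least 1.94-fold higher in KY170R, from the mean log2 values with the KY170 arrays set to the limit. Only the 24 h value in KY170R was also above 24.5, the size of the most negative value on the arrays. The measured log2 difference of 2.57 ± 0.70 (SE) did not pass the test (adjusted p = 0.106). With values floored at the limit, the difference behind the bound was 0.96 and did not pass either (limma, adjusted p = 0.589). This bound is a mean over times, and at 8 h the KY170R value was only just above the limit.

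EP4, encoded by PTGER4, was the receptor that could be measured. Its probe (ILMN_1795930) read 161.6, 132.8 and 261.2 in KY170R and 327.9, 216.9 and 272.8 in KY170 at 0, 8 and 24 h. KY170R was lower at each time, by 2.03-fold, 1.63-fold and 1.04-fold at 0, 8 and 24 h, and the ranges of the lines overlapped. The mean difference of -0.60 ± 0.25 on the log2 scale (SE) did not pass (adjusted p = 0.324), and neither did the changes over time. EP2, encoded by PTGER2, had a probe (ILMN_1703926) with values between -1.36 and 5.63 in KY170R and between -0.43 and 11.9 in KY170, all under the limit.

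**Figure D3:**
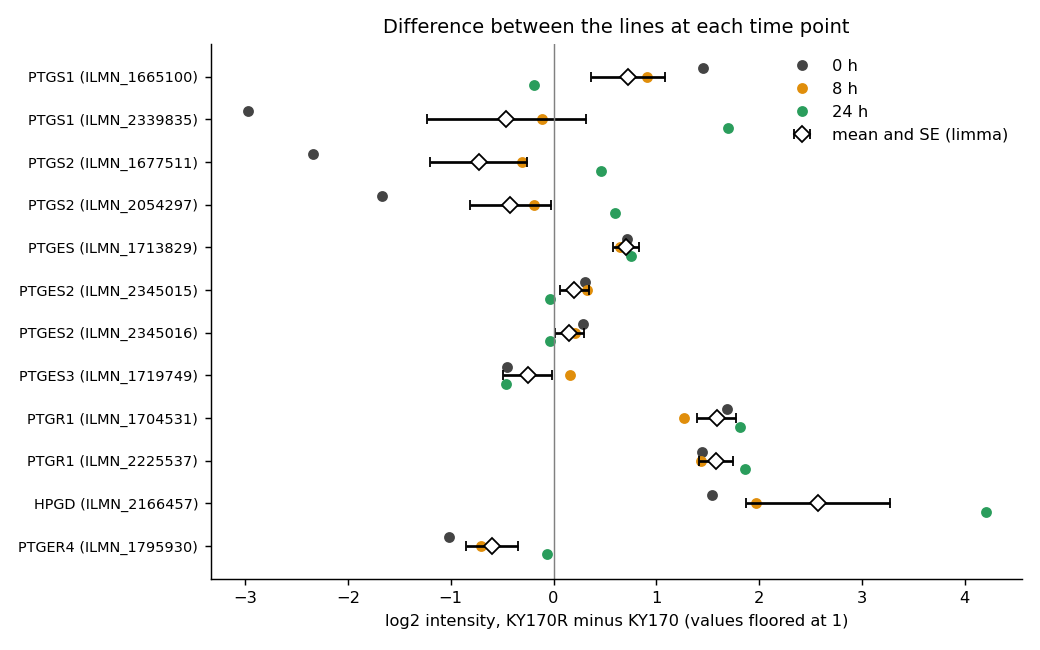
Difference in log2 intensity between KY170R and KY170 for each of the 12 tested probes, with a point for each time point and the mean with its SE from limma as an open diamond. Both PTGR1 probes lie near 1.6 with all points above 1, PTGES near 0.70 with its points close together, and the points of PTGS2 and of PTGS1 (ILMN_2339835) lie on both sides of 0.

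Between the lines, 3 of the 12 probes were called, those of PTGR1 and PTGES, all higher in KY170R, against 1.82% of all probes tested (1% called higher), and 5 had an unadjusted p under 0.05, against 13.6% of all probes. KY170R was above KY170 at all 3 time points for 3 of the 11 probes above the limit in both lines (PTGES and both of PTGR1), a pattern shown by 17.2% of all probes, and below it at all 3 for 1, that of PTGER4. HPGD, which was above the limit in KY170R alone, was left out of this count. The median log2 difference was 0.18 over the 12 probes and 0.00 over all probes tested. These calls rest on a prior variance that follows the mean level: with one prior variance for all probes, no probe of these genes was called in any comparison, and PTGR1 then had adjusted p = 0.356 and 0.357 and PTGES 0.474 between the lines. Their calls between the lines were also lost with a floor at the background limit, with no filter on dim probes, without the time term and in the methods' t-test, which they name for means of groups in general, after adjustment.

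The genes around this pathway were counted from 7 lists of 102 genes, of which 92 were matched and 67 tested, each by its brightest probe. Between the lines, 2 were called, both higher in KY170R, which is 2.99% of those tested, beside 1.82% of all probes (1% called higher). AKR1C3, an aldo-keto reductase that makes prostaglandin F and 11-beta-prostaglandin F, read 6501, 3402 and 8805 in KY170R and 2059, 546.8 and 1096 in KY170 at 0, 8 and 24 h (log2 difference 2.43, adjusted p = 5.4e-04). CYP4F11, of a P450 family that hydroxylates eicosanoids and other fatty acids at the end of the chain, read 622.8, 386.7 and 1031 in KY170R and 152.3, 37.0 and 83.9 in KY170 (log2 difference 3.01, adjusted p = 8.4e-04).

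CYP4F2 of the same family read 78.3, 25.0 and 51.4 in KY170R and 15.2, 12.0 and 3.4 in KY170, a log2 difference of 2.45 that did not pass (adjusted p = 0.0577). It was below the limit in KY170 at 8 and 24 h, where the fold is a bound: it was 5.15-fold higher in KY170R at 0 h, at least 1.82-fold at 8 h and at least 3.74-fold at 24 h. ALOX15, a lipoxygenase that uses the same fatty acid, read 26.5, 22.0 and 10.5 in KY170R and 56.5, 52.5 and 24.0 in KY170 at 0, 8 and 24 h (adjusted p = 0.172). KY170R was 2.13-fold lower at 0 h, 2.39-fold lower at 8 h and, with its own value below the limit, at least 1.74-fold lower at 24 h. AKR1C3 and CYP4F11, which were above the limit on all arrays, were higher in KY170R by 2-fold or more at each of these times.

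Between 8 and 0 h, 25 of the 67 genes were called (37.3%, beside 29.1% of all probes), 9 higher and 16 lower at 8 h, and between 24 and 0 h 26 were called (38.8%, beside 36.5%), 13 higher and 13 lower at 24 h. Between 24 and 8 h, 10 were called (14.9%, beside 6.52%), 9 of them higher at 24 h. Of all probes, 3.53% were called higher and 2.99% lower in that comparison. The shares of all probes count every tested probe and not only the brightest of each gene, so the sets are not alike. At 8 h, 15.2% of all probes were called higher and 13.9% lower, and the counts of the single lists, of 4 to 15 tested genes, are given as descriptions beside these shares, with nothing read from them about a list. Among 13 tested genes of arachidonic acid release, 4 fell and 1 rose at 8 h, and the median log2 change was -0.45, beside 0.03 over all probes. PLA2G10, a secreted phospholipase A2, read 447.6, 49.1 and 69.8 in KY170R and 196.0, 40.5 and 21.3 in KY170 at 0, 8 and 24 h, with log2 changes of -2.73 at 8 h and -2.94 at 24 h (adjusted p = 8.3e-04 and 4.5e-04).

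PLD2, a phospholipase D, fell by 1.83 on the log2 scale at 8 h and by 1.21 at 24 h (adjusted p = 9.2e-04 and 0.00644). PLAA, an activator of phospholipase A2, rose at both times but was below the limit at 0 h in both lines, with 11.5, 53.3 and 61.5 in KY170R and -1.6, 84.2 and 52.4 in KY170. The calls of PLA2G4A and PLA2G2A at 24 h rested on probes above the limit on 1 array each.

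Of 4 tested prostanoid synthases and reductases outside the 10 genes, 3 fell and 1 rose at 8 h, beside 29.1% of all probes called, and the list is too short for a share. CBR3, a carbonyl reductase, read 1148, 281.2 and 244.2 in KY170R and 427.2, 129.1 and 168.7 in KY170 at 0, 8 and 24 h, with log2 changes of -1.88 at 8 h and -1.79 at 24 h (adjusted p = 9.6e-04 and 9.8e-04). Its relative CBR1 fell at both times, AKR1C3 fell at 8 h (log2 change -1.42, adjusted p = 0.00357), and GSTM3, a glutathione transferase, rose at both. None of the probes of PTGIS, TBXAS1 and HPGDS, the synthases of prostacyclin, thromboxane and, in blood cells, prostaglandin D2, was above the limit on any array.

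Among breakdown and transport genes, ABCC4, an exporter of prostaglandins from the cell, rose with time in both lines. It read 98.8, 411.1 and 362.1 in KY170R and 114.3, 296.3 and 353.0 in KY170 at 0, 8 and 24 h (log2 changes 1.72 and 1.75, adjusted p = 0.00141 and 0.00103). CYP4F11 fell at 8 h (log2 change -1.36, adjusted p = 0.0193). The uptake transporter SLCO2A1 was above the limit on no array.

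Of the 10 other prostanoid receptors and receptor-linked genes, 5 were above the limit on no array. PTGER1 and PTGER3, which encode the receptors EP1 and EP3, were above it on 3 arrays each and passed no test. PTGFRN, a regulator of the prostaglandin F receptor, rose by 0.62 at 8 h and by 0.66 at 24 h on the log2 scale (adjusted p = 0.0357 and 0.0229). PPARG, a nuclear receptor that binds prostaglandin J2 derivatives, fell at 8 h and was higher at 24 h than at 8 h, with 1941, 1059 and 2509 in KY170R and 2755, 1527 and 2848 in KY170 at 0, 8 and 24 h (log2 change at 8 h -0.86, adjusted p = 0.00729).

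In the lipoxygenase and leukotriene branch, which uses the same arachidonic acid, 3 of 10 tested genes fell and 1 rose at 8 h, beside 13.9% and 15.2% of all probes. LTB4R, the receptor of leukotriene B4, read 32.6, 391.4 and 239.2 in KY170R and 35.1, 404.8 and 464.6 in KY170 at 0, 8 and 24 h, with log2 changes of 3.56 and 3.30 (adjusted p = 1.3e-04 and 1.2e-04). ALOX5AP, the helper protein of 5-lipoxygenase, fell by 1.57 at 8 h on the log2 scale (adjusted p = 0.0131), and the microsomal glutathione transferases MGST2 and MGST3 fell at 8 and 24 h. LTA4H, which makes leukotriene B4, rose by 0.74 at 24 h (adjusted p = 0.0087).

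**Figure D4:**
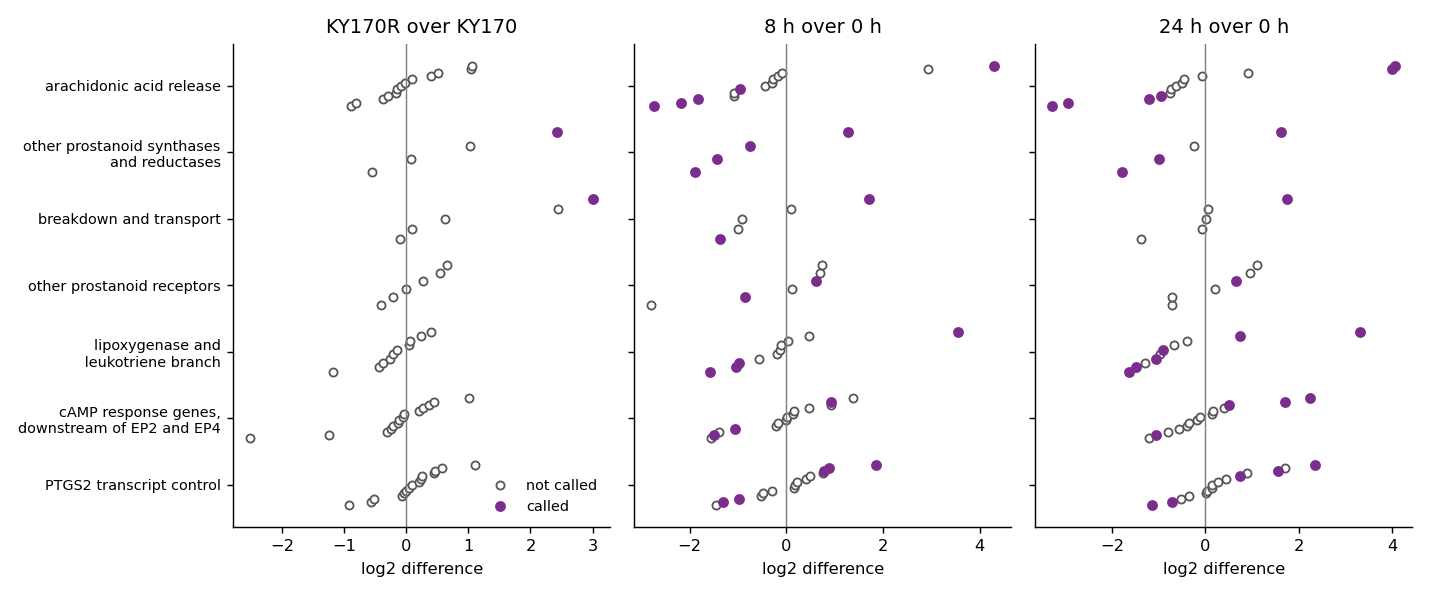
Log2 differences of the 67 tested pathway genes, by list, between KY170R and KY170, between 8 and 0 h, and between 24 and 0 h, with filled purple points for genes called at an adjusted p under 0.05 and open points for the others. Only AKR1C3 and CYP4F11 are called between the lines, and called genes lie on both sides of 0 at 8 and 24 h.

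Cyclic AMP genes, which lie downstream of EP2 and EP4, gave 3 calls of 14 tested genes at 8 h, 1 higher and 2 lower, beside 15.2% and 13.9% of all probes, shares near the background or under it. PRKAR1A, a regulatory subunit of the cyclic AMP dependent kinase, read 1840.3, 3977 and 6979 in KY170R and 1709, 2882 and 4808 in KY170 at 0, 8 and 24 h (log2 changes 0.93 and 1.71, adjusted p = 0.00359 and 1.7e-04). ADCY6, an adenylate cyclase, and ARRB1, which uncouples receptors, fell at 8 h. At 24 h against 0 h, 3 genes of this list were called higher and 1 lower, beside 19.2% and 17.4% of all probes. Between 24 and 8 h, 3 were called higher and 0 lower, beside 3.53% and 2.99%. PDE4D read 15.4, 47.2 and 81.997 in KY170R and 25.3, 29.8 and 104.4 in KY170 at 0, 8 and 24 h. It rose at 24 h (log2 change 2.23, adjusted p = 0.00361), as did GNAS (log2 change 0.503, adjusted p = 0.0127). The immediate cyclic AMP targets NR4A1 and NR4A3 were above the limit on no array, and NR4A2 was above it only on the KY170R 24 h array, with 2.1, 11.8 and 21.7 in KY170R and 13.7, 4.6 and -8.4 in KY170 at 0, 8 and 24 h.

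Of 15 tested genes that control the PTGS2 transcript, 3 rose and 2 fell at 8 h, beside 15.2% and 13.9% of all probes, shares near the background. NFKB1 rose by 0.78 at 8 h and 0.75 at 24 h on the log2 scale (adjusted p = 0.00812 and 0.00821), and JUN, a part of AP-1, by 0.89 at 8 h (adjusted p = 0.0270). TIA1, a protein that binds AU-rich RNA and holds back PTGS2 translation, read 278.4, 1011 and 1442 in KY170R and 297.3, 1069 and 1466 in KY170 (adjusted p = 2.9e-04 at 8 h and 1.0e-04 at 24 h).

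CEBPB and CEBPD, which encode C/EBP factors, fell at 8 h, opposite to PTGS2. CEBPB read 10346, 5376 and 14217 in KY170R and 14569, 4564 and 10972 in KY170 at 0, 8 and 24 h (log2 change at 8 h -1.31, adjusted p = 9.3e-04) and was higher at 24 h than at 8 h (log2 1.33, adjusted p = 0.0084). FOS and ZFP36 passed no test, and both were highest at 24 h in KY170R: FOS read 82.3, 70.7 and 966.0 in KY170R and 103.6, 58.6 and 92.5 in KY170, and ZFP36, whose product speeds the decay of PTGS2 RNA, 1025, 353.7 and 1432 in KY170R and 1054, 405.1 and 369.5 in KY170.

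The genes whose profile over the 6 arrays was most like that of PTGS2, PTGR1 and PTGES, the genes that varied most among those above the limit on all arrays, were found among 11752 probes above the limit on all arrays by Pearson correlation of log2 values. For PTGS2 these were MGAT5, DYRK3 and NFX1 (r = 0.983, 0.982 and 0.979), for PTGR1 they were SGSH, ANTXR2 and TRPC4AP (r = 0.987, 0.976 and 0.973), and for PTGES they were PSMB8, TINF2 and TSEN34 (r = 0.998, 0.997 and 0.997). With 6 arrays and this many probes, values of this size describe the arrays and carry no test. ANTXR2, for example, read 423.1, 596.1 and 631.6 in KY170R and 102.2, 144.0 and 162.3 in KY170, and PSMB8 read 5172, 2070.5 and 2551 in KY170R and 3134, 1285 and 1615 in KY170 at 0, 8 and 24 h.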

How the data were processed

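RNA of KY170R and KY170 cells was hybridised to 6 Illumina Human-6 V3 arrays, 1 for each line at 0, 8 and 24 h after irradiation, and arrays were grouped by their labels. The deposited values are linear probe intensities made by the authors with Illumina BeadStudio. They had been background-subtracted (29.9% of each array's values were below 0) and normalized between arrays, and the version and method are not given in the sources used here. Profiling is stated to have been in triplicate, and whether a column pools repeats is not given. Of 48803 probes, 27578 had 1 gene symbol in the platform annotation, 13 several and 21212 none, and only the first kind was named.

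Values were raised to a floor of 1 and turned into log2, so that changes of dim probes depend on the floor. The upper 50% of probes by mean log2 (24401) were tested with limma 3.58.1 in R 4.3.3 (lmFit and eBayes with a trended and robust prior, two-sided), with line and time as factors, on 2 residual and 8.66 prior degrees of freedom (4.54 prior ones for the interaction). The interaction fit used line and later times against 0 h. Benjamini-Hochberg adjusted p-values under 0.05 over all tested probes were called, and rose, fell or changed is written of called probes. The background limit of 13.7 is the size of the 1st percentile of all values below 0. The script was tested on simulated data with known changes. The number of arrays limits the precision, and no detection p-values were used. Promoter windows and motif shares came from RefSeq (GRCh38.p14), and no coordinates belong to the array values.

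Every member above the limit on 2 or more arrays is given in full. Pathway genes are counted in full. Those named were called in a comparison, were at least 2-fold apart in one direction at all 3 times (values raised to the floor), or are given as not detected. FOS, ZFP36, PTGER1 and PTGER3 were chosen after their values were seen. The members, the lists, the trended prior and the other settings were chosen with earlier results of these data known. Alternatives were another prior, floor, offset, normalization, filter and model, the methods' t-test, and each array or time point left out. The methods name a Student t-test for means of groups in general and call array genes by a score of the scanner maker's software, which was not computed here. The second line pair of the study was not analysed here.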

Additional observations from a re-analysis of the deposited data

Results flagged for a closer look

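One PTGS1 probe (ILMN_2339835) moved in opposite directions in the lines: both later arrays were above the 0 h array in KY170R (4.7, 19.5 and 65.9 at 0, 8 and 24 h) and both were below it in KY170 (36.9, 21.0 and 20.3). The difference between the lines in the change after 0 h was 3.77 ± 1.22 on the log2 scale (SE, limma), with an adjusted p of 0.999, so that it did not pass its test. The KY170R 0 h value was below the background limit, and the other PTGS1 probe, annotated to another transcript, gave -1.09 ± 0.83 (SE) in the same test.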

How the results depend on the processing

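Of 734 values of single probes under the alternatives, 708 kept their direction, 49 lost a call and 18 gained one. A change of prior or filter, a dropped model term and the t-test leave each log2 difference as it was, so there no direction could turn. The count of 708 is thus partly fixed and does not measure how firm the directions are. With the main settings limma called 444 probes between the lines (3 of the prostaglandin genes), 7106 at 8 h (5), 8915 at 24 h (3), 1590 between 24 and 8 h (0) and 0 in the interaction (0). One prior variance for all probes gave 1 (0), 0 (0), 0 (0) and 0. A floor at the background limit, which puts 1423 of the tested probes at the floor on all arrays, gave 0 (0), 2599 (1), 3952 and 0, and 668 in the interaction, and without a filter, where 6176 probes were at the floor on all arrays, the counts were 0 (0), 348 (1), 525 (1), 0 and 2052. Adding 16 before log2 gave 798 between the lines, HPGD among them (log2 1.09, adjusted p = 0.0465), and 2425 between 24 and 8 h. Without the time term 15 (0) were called between the lines, and without the line term 2 between 24 and 8 h. The methods' t-test gave 5 (0) between the lines after Benjamini-Hochberg adjustment and 756 at an unadjusted p under 0.05. PTGES at 24 h was not called without the line term (adjusted p = 0.0733). The cause of these changes was not tested, other than the fewer measured values that the floor leaves.

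With single arrays or time points left out, counts were 257 to 1284 between the lines (2 to 5 of these genes), 2904 to 8535 at 8 h (1 to 6), 5790 to 8266 at 24 h (2 to 6) and 121 to 3378 between 24 and 8 h (0 to 2). The directions that turned were all of values that had not been called. They ranged on the log2 scale, between the lines, -1.54 to 0.80 for PTGS1 (ILMN_2339835), and -1.32 to 0.077 and -0.93 to 0.20 for PTGS2 (ILMN_1677511 and ILMN_2054297). At 8 h the ranges were -0.20 to 0.90 and -1.26 to 2.50 for PTGS1 (ILMN_1665100 and ILMN_2339835), -0.15 to 0.32 and -0.026 to 0.19 for PTGR1 (ILMN_1704531 and ILMN_2225537) and -1.40 to 0.15 for HPGD. At 24 h against 0 h they were -0.54 to 0.84 and -0.41 to 3.36 for PTGS1, -1.12 to 1.33 for HPGD and -0.19 to 0.61 for PTGER4. Between 24 and 8 h they were -0.89 to 0.49 and -0.77 to 2.47 for PTGS1, -0.23 to 0.12 for PTGES2 (ILMN_2345015), -0.59 to 0.037 for PTGES3, -0.072 to 0.35 for PTGR1 (ILMN_2225537) and -0.49 to 1.96 for HPGD. A floor at the limit also turned PTGS1 (ILMN_2339835), to 0.056 between the lines and -0.15 at 8 h.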
